A study of Mus musculus with 12 samples.

Results

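Cholesterol synthesis and sterol regulation genes were followed in piriform cortex, the olfactory cortex at the base of the forebrain, of mice with and without a Huntington's disease allele. The genes were 29 named members of the pathway whose symbols were looked up in the count table of 48795 genes, and all 29 were found and passed the expression filter, which kept 17725 genes. The mutants were 6 heterozygous Q140 knock-in mice, in which 1 Htt allele carries an expanded CAG repeat and is expressed from its own locus in every cell that uses the gene. They were compared with 6 wild types (WT), with 3 males and 3 females in each group, all aged 12 months and on a C57BL/6 background. Each animal gave 1 RNA-seq library, and every library came from plate 1. The libraries held 19.6 to 35.2 M counts in Q140 and 24.1 to 33.2 M in WT, and the members had between 177 reads (Idi1) and 12559 reads (Hmgcs1) in an animal. Htt itself averaged 151 ± 8.19 CPM in Q140 and 196 ± 8.15 CPM in WT (SD, n = 6 each), and the groups did not overlap. CPM are counts scaled to the size and composition of each library.

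Neurons and glia make their own cholesterol, because lipoproteins of the blood do not cross into the brain. Acetyl-CoA is built up through mevalonate to isoprenoid diphosphates, these are joined to squalene, squalene is closed to lanosterol, and lanosterol is trimmed to cholesterol. When sterols run low, Scap carries the Srebf transcription factors out of the endoplasmic reticulum and they switch on the synthesis genes, while the Insig proteins hold Scap back when sterols are plentiful. Surplus cholesterol leaves neurons after hydroxylation by Cyp46a1, and astrocytes and other cells export it through Abca1 and Abcg1.

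Of the 29 genes, 10 fell in Q140 cortex, 0 rose and 19 did not pass the test (edgeR, adjusted p under 0.05). Among all genes tested, 6.69% fell and 4.5% rose, 1185 and 797 genes. Scaled by library totals alone, without a factor for composition, 822 genes fell and 1624 rose, and 5 members fell and 0 rose. The 10 were Acat2, Hmgcs1, Fdft1, Sqle, Lss, Cyp51, Msmo1 and Nsdhl among the 20 enzymes of synthesis, the sterol sensor Insig1, and Cyp46a1. Their falls were small, between 10.2% for Msmo1 and 23.1% for Insig1. In each of the 10 all 6 Q140 animals lay below the WT mean. The 10 were picked on these same animals, so that pattern is no support for their falls. It also held for Mvd, Sc5d, Insig2 and Stard4, which did not pass, and was not counted for all genes. The median log2 fold change of the 29 genes was -0.15, against 0.0045 for all genes tested, and 20 of the 29 had a negative sign (18 by totals alone, where Srebf2 and Hsd17b7 turned positive), against 48.7% of all genes. No member was higher with DESeq2 either, whose counts are at an adjusted p under 0.05 unless stated. At an unadjusted p under 0.05 edgeR gave 16 lower and 2 higher, Srebf1 and Abca1. Of all 17725 genes tested, 4728 had such a p in either direction. Unadjusted counts of other lists below are to be read against that share, and none is given for the fits by sex. Counts of other lists at an adjusted p under 0.05 are to be read against the 6.69% lower and 4.5% higher of all genes.

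The number that fell was 6 without Q140 animal 1, 2 or 4 or without WT animal 1, 5 without WT animal 3, and 4 without both WT animals 3 and 6. With the prefix of the animals' names as a covariate it was 0, with 6 lower and 0 higher at an unadjusted p under 0.05, and a median of -0.13. The labels do not say what the prefix means, and it ran almost along with genotype. Hmgcs1, Lss, Insig1 and Cyp46a1 passed in 25 of 27 alternative analyses, all but those with the prefix or the number in the animals' names as a term.

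**Figure D1:**
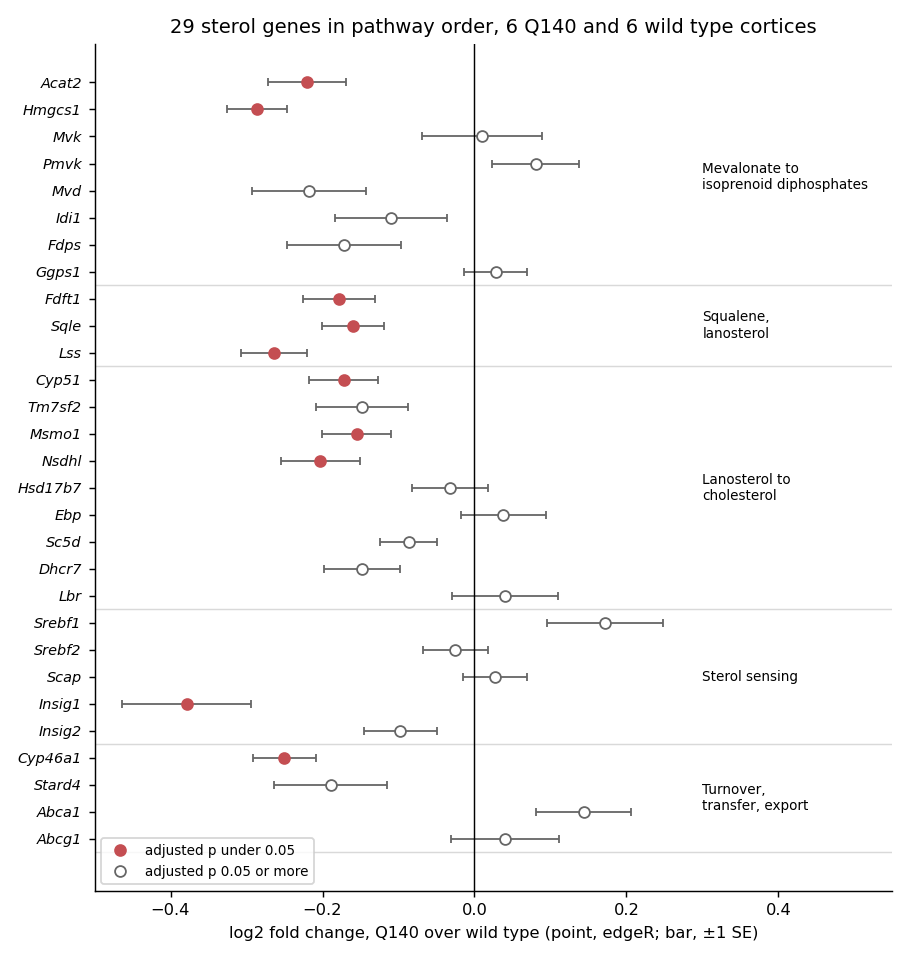
Log2 fold change of each of the 29 genes, Q140 over WT, in pathway order from acetyl-CoA at the top (point, edgeR estimate; bar, 1 SE; 6 animals a group). Filled points mark the 10 genes that passed, all left of 0 and down to -0.38 for Insig1; the highest open point is Srebf1 at 0.17.

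The promoters shown are those of the 4 members that passed with the smallest p among those with a window. They are also the 4 that passed in 25 of the 27 alternative analyses. These windows were picked after the values were seen. The plan had been to print members that passed and hold the sterol regulatory element, which would have given Hmgcs1 alone. They come from RefSeq on GRCm38.p6 and run 250 bases before to 50 bases after the annotated start, 5′ to 3′. Capitals mark the sterol regulatory element TCACNCCAC, to which the Srebf proteins bind, and the CCAAT box of their partner NF-Y, each searched on both strands, so that a CCAAT box on the opposite strand reads ATTGG here.
Hmgcs1, chr13:119690101-119690400, plus strand: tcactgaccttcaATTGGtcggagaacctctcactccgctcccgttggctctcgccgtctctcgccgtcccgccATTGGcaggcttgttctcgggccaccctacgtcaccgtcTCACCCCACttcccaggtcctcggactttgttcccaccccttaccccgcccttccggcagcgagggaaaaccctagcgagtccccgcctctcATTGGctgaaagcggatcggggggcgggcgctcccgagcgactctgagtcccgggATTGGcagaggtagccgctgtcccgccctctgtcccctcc
Lss, chr10:76531355-76531654, plus strand: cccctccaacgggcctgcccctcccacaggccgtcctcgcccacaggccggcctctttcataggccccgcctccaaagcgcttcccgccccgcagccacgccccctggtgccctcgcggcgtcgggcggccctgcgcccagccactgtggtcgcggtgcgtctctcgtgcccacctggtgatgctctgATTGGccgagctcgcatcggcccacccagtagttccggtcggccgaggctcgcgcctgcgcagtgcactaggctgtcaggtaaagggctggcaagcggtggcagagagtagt
Insig1, chr5:28071162-28071461, plus strand: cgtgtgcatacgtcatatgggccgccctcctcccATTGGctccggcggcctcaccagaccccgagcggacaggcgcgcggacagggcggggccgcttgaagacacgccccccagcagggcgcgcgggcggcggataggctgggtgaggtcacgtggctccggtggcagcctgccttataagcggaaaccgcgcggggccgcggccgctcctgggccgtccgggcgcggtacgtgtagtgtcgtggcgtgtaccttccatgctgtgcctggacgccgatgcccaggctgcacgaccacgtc
Cyp46a1, chr12:108334066-108334365, plus strand: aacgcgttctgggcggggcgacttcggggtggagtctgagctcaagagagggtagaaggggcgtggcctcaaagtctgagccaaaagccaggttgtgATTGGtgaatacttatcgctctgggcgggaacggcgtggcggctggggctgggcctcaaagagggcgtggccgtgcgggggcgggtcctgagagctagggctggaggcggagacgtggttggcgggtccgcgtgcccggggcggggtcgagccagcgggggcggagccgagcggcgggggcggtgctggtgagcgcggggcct
Hmgcs1 held the sterol element, as TCACCCCAC 137 bases before the start, and 4 CCAAT boxes. Lss, Insig1 and Cyp46a1 each held 1 CCAAT box and no match to the element in this window.

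A window was given for 24 of the 29 genes; Fdps, Fdft1, Sqle, Stard4 and Abcg1 were not covered. TCACNCCAC was present in 1 of the 24 (4.2%), against 1.44% of 27025 genes with a window. These 27025 genes were not limited to those that passed the expression filter, as all members did, so the shares are not matched for expression. CCAAT was held by 21 of 24 (87.5%), against 41.06% of all genes with a window. The GGGCGG box, to which Sp1 binds, stood in 22 of 24 (91.7%), against 38.2%, and the CACGTG E-box in 6 of 24, against 8.09%. The 3 without a CCAAT box were Acat2, Scap and Abca1, of which Acat2 fell. A match is a description of letters and not of a bound site.

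The first stage, from acetyl-CoA to the isoprenoid diphosphates, had 2 of 8 enzymes lower. Hmgcs1, the cytosolic synthase that joins acetoacetyl-CoA to a further acetyl-CoA (ENSMUSG00000093930, chromosome 13, 119690379 to 119708260, GRCm38), was the member with the smallest p. It had 307 CPM in the lowest, 341 in the median and 360 in the highest Q140 animal, against 377, 422 and 428 CPM in WT. The groups did not overlap, which held for 2 of the 29 genes with Q140 below, against 2.7% of all genes, and for 0 with Q140 above, against 1.88%. Its mean was 337 ± 20.7 CPM in Q140 and 410 ± 22.9 CPM in WT (SD, n = 6 each). The log2 fold change was -0.29 (SE 0.0390, adjusted p = 0.000627). Acat2, the thiolase that makes acetoacetyl-CoA (chromosome 17, 12942890 to 12960747), ran from 24.7 through a median of 27.04 to 30.2 CPM in Q140, against 29.2, 31.4 and 33.6 CPM in WT. Only Q140 animal 6 reached the WT range. Its log2 fold change was -0.22 (SE 0.0517, adjusted p = 0.0154).

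The other 6 enzymes of that stage did not pass. Mvd, the decarboxylase that makes isopentenyl diphosphate, averaged 21.6 ± 2.24 CPM in Q140 and 25.1 ± 2.63 CPM in WT, with a log2 fold change of -0.22 close to that of Acat2 but a larger error (SE 0.0748, adjusted p = 0.0769). Fdps, which makes farnesyl diphosphate, stood at -0.17 (adjusted p = 0.159) and the isomerase Idi1 at -0.11 (adjusted p = 0.367). The kinases Mvk (0.0095) and Pmvk (0.08) and Ggps1 (0.03), which diverts farnesyl diphosphate towards protein prenylation, had positive signs, with adjusted p values of 0.958, 0.397 and 0.711. Fdps shares 26.7% of its exonic length with Gm43738 on the same strand, so its value is uncertain.

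All 3 enzymes that take farnesyl diphosphate to lanosterol fell. Lss, the cyclase that closes squalene epoxide to the sterol rings (ENSMUSG00000033105, chromosome 10, 76531588 to 76557138), had 54.0, 60.0 and 68.8 CPM in the lowest, median and highest Q140 animal, against 64.3, 72.4 and 85.1 CPM in WT. WT animal 6 was the lowest WT, and Q140 animals 3 and 5 lay above it. Lss averaged 60.7 ± 6.09 CPM in Q140 and 72.8 ± 7.22 CPM in WT (SD, n = 6 each), and fell by 0.26 in log2 (SE 0.0438, adjusted p = 0.0022).

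Fdft1, the squalene synthase (chromosome 14, 63145150 to 63179578), had 75.3, 82.0 and 85.9 CPM in Q140, against 83.3, 92.2 and 99.4 CPM in WT. The Q140 males 3, 5 and 6 reached the level of WT animal 4, and Fdft1 fell by 0.18 (SE 0.0471, adjusted p = 0.0275). Sqle, the epoxidase that opens the oxygen-dependent part of the pathway (chromosome 15, 59315077 to 59331192), ran from 69.2 through 79.2 to 86.3 CPM in Q140, against 84.2, 87.3 and 91.1 CPM in WT. Q140 animals spread more widely than WT for Sqle, with SDs of 7.13 and 2.61 CPM, and its fall was 0.16 (SE 0.0408, adjusted p = 0.0227). Fdft1 shares 18.3% of its exonic length with Ctsb on the opposite strand. Without a stated strand setting of the counting, reads of such pairs cannot be told apart; Hmgcs1, Lss and Cyp51 also have shorter overlaps of that kind, of 12.1%, 3.5% and 3.8%.

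From lanosterol to cholesterol 3 of 9 enzymes fell. Cyp51, which removes the first methyl group of lanosterol (chromosome 5, 4081145 to 4104746), had 67.7, 71.5 and 75.7 CPM in Q140, against 74.2, 80.8 and 87.3 CPM in WT. A single Q140 animal, number 3, lay within the WT range, and the fall was 0.17 (SE 0.0456, adjusted p = 0.0276). Msmo1 and Nsdhl act together in removing the next pair of methyl groups. Nsdhl (chromosome X, 72918557 to 72958514) ran from 27.96 through 30.2 to 31.8 CPM in Q140, against 31.3, 35.01 and 37.6 CPM in WT, and fell by 0.20 (SE 0.0516, adjusted p = 0.0228). Msmo1 (chromosome 8, 64718139 to 64733792) had 89.9, 95.3 and 107 CPM in Q140, against 96.7, 108 and 114 CPM in WT. In WT animal 2 Msmo1 stood apart, at 96.7 CPM against 108 CPM or more in the other WT animals. Its fall of 0.15 (SE 0.0453, adjusted p = 0.0418) was the one nearest the threshold, and it passed in 8 of 27 alternative analyses. Cyp51 passed in 14 of them, Fdft1 in 15, Sqle and Nsdhl in 17 each and Acat2 in 22.

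Between lanosterol and cholesterol the other 6 enzymes did not pass. Hsd17b7, a reductase of the demethylation complex, stood at -0.03 (adjusted p = 0.724), the isomerase Ebp at 0.04 (adjusted p = 0.715) and the sterol reductase Lbr, which is also a receptor of the nuclear lamina, at 0.04 (adjusted p = 0.757). Tm7sf2, a reductase of the same step as Lbr, had a log2 fold change of -0.15 (adjusted p = 0.137), and 12.1% of its exonic length belongs also to Vps51 on the same strand. Dhcr7, the reductase of the closing step of one branch, was at 40.6 ± 4.17 CPM in Q140 and 44.9 ± 3.13 CPM in WT, a value of -0.15 that just missed the threshold (SE 0.0502, adjusted p = 0.0742). For Sc5d, the desaturase before it, all 6 Q140 animals lay below the WT mean, at -0.09 (SE 0.0378, adjusted p = 0.159).

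Among the 5 genes of sterol sensing, Insig1 fell and the other 4 did not pass. Insig1 (ENSMUSG00000045294, chromosome 5, 28071363 to 28078662), itself a target of the Srebf proteins, had 63.1 CPM in the lowest, 79.3 in the median and 92.2 in the highest Q140 animal, against 70.9, 103 and 120 CPM in WT. WT animal 6, at 70.9 CPM, lay among the Q140 animals, while the other 5 WT animals began at 102 CPM, above every Q140 animal. The mean was 78.1 ± 11.2 CPM in Q140 and 101 ± 16.4 CPM in WT (SD, n = 6 each), and the log2 fold change of -0.38 was the largest in size among the 29 (SE 0.0851, adjusted p = 0.0122). Insig2, its relative that the Srebf proteins do not drive, ran from 40.1 through 42.4 to 45.1 CPM in Q140, against 41.5, 46.2 and 49.4 CPM in WT. Its groups overlapped, at -0.10 (SE 0.0486, adjusted p = 0.219).

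Srebf2, the main activator of cholesterol synthesis, had 283, 295 and 320 CPM in the lowest, median and highest Q140 animal, against 272, 303 and 330 CPM in WT. The Q140 range lay inside the WT range, at -0.03 in log2 (SE 0.0427, adjusted p = 0.75). Srebf1, whose product acts mainly on fatty acid genes, ran from 62.9 through 71.2 to 88.2 CPM in Q140, against 55.3, 65.2 and 72.5 CPM in WT. Q140 animal 3 alone exceeded 80 CPM, and the value was 0.17 (SE 0.0763, adjusted p = 0.167). Srebf1 passed, as higher, in 1 of 27 alternative analyses, without Q140 animal 5. Scap averaged 93.7 ± 4.92 CPM in Q140 and 91.8 ± 3.53 CPM in WT, at 0.03 (adjusted p = 0.73). Transcript levels do not show how much of the Srebf proteins was cleaved.

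Of the 4 genes of turnover, transfer and export, Cyp46a1 fell. Cyp46a1 (ENSMUSG00000021259, chromosome 12, 108334381 to 108362234) had 204 CPM in the lowest, 208 in the median and 212 in the highest Q140 animal, against 222, 247 and 265 CPM in WT. The 6 Q140 animals were close to one another and below every WT animal, the lowest of which was WT animal 4. The means were 208 ± 2.498 CPM in Q140 and 248 ± 15.9 CPM in WT (SD, n = 6 each), and the log2 fold change was -0.25 (SE 0.0410, adjusted p = 0.00204).

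Abca1, the exporter that loads apolipoproteins with cholesterol, had 57.9, 60.5 and 64.5 CPM in Q140, against 44.3, 56.2 and 62.4 CPM in WT. All 6 Q140 animals lay above the WT mean, but WT animals 2, 4 and 5 reached their level or nearly so, and 0.14 did not pass (SE 0.0621, adjusted p = 0.156). Its partner Abcg1 ran from 61.6 through 65.0 to 69.9 CPM in Q140, against 51.8, 66.6 and 71.5 CPM in WT, at 0.04 (SE 0.0711, adjusted p = 0.763). The WT range enclosed the Q140 range. Stard4, a soluble carrier of sterols between membranes, averaged 39.8 ± 3.09 CPM in Q140 and 45.3 ± 5.35 CPM in WT, at -0.19 (SE 0.0748, adjusted p = 0.122).

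**Figure D2:**
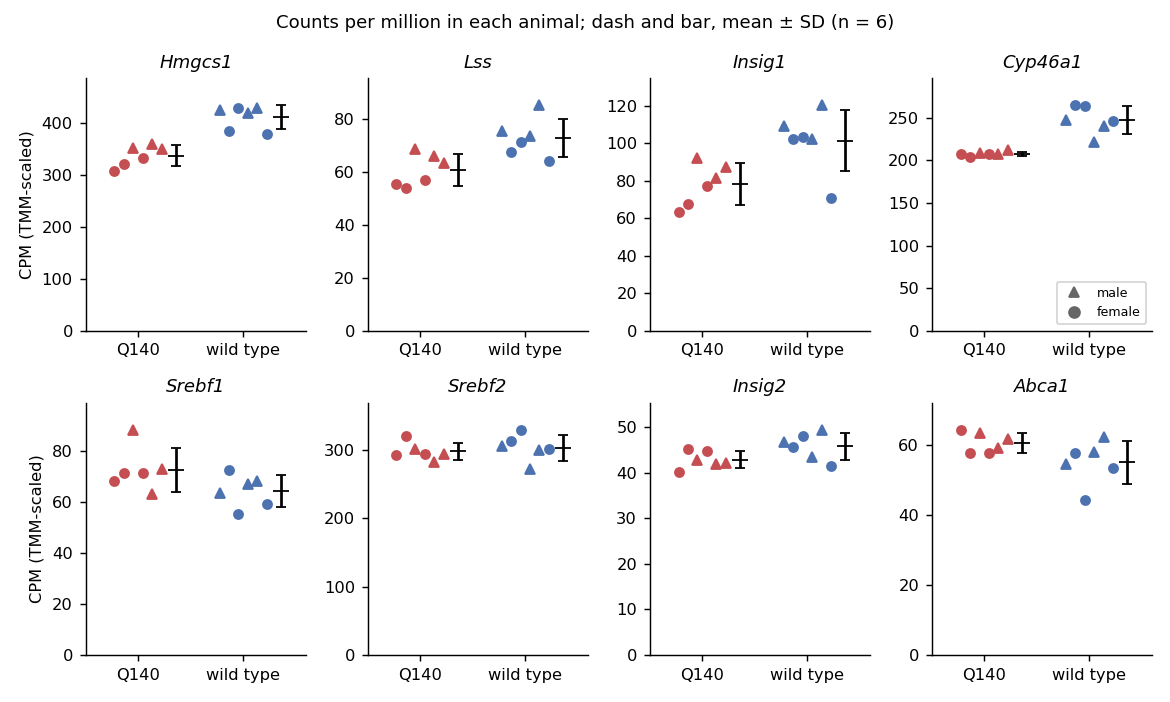
CPM of 8 genes in each animal (triangles, males; circles, females; Q140 left, WT right; dash and bar, mean and SD of 6 animals; each vertical axis starts at 0). The Q140 points of Hmgcs1 and Cyp46a1 lie below all WT points, 1 WT animal at 70.9 CPM lies among the Q140 points of Insig1, and the groups of the other genes overlap.

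Levels can be set against one another only per length, for which the FPKM values of the authors were used. Hmgcs1 stood highest, with 106 ± 8.23 FPKM in Q140 and 125 ± 7.72 FPKM in WT (SD, n = 6 each). Cyp46a1 followed at 107 FPKM over all 12 animals, then Srebf2 at 60.2, Fdft1 at 30.2, Insig1 at 28.97 and Sc5d at 26.9 FPKM. At the other end were Fdps at 3.72, Lbr at 3.17 and Idi1 at 2.69 FPKM. The other members lay in between, so that abundance along the pathway varied far more between genes than it did between genotypes. Lss, at 6.18 FPKM, was among the lower enzymes. Of the 5 members with the highest level, 4 were among the 10 that fell, and of the 7 with the lowest level, 0 were. These cuts were set after the values were seen, and Lss, which fell, stands just above the 7. Whether level and fall are related was not tested.

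**Figure D3:**
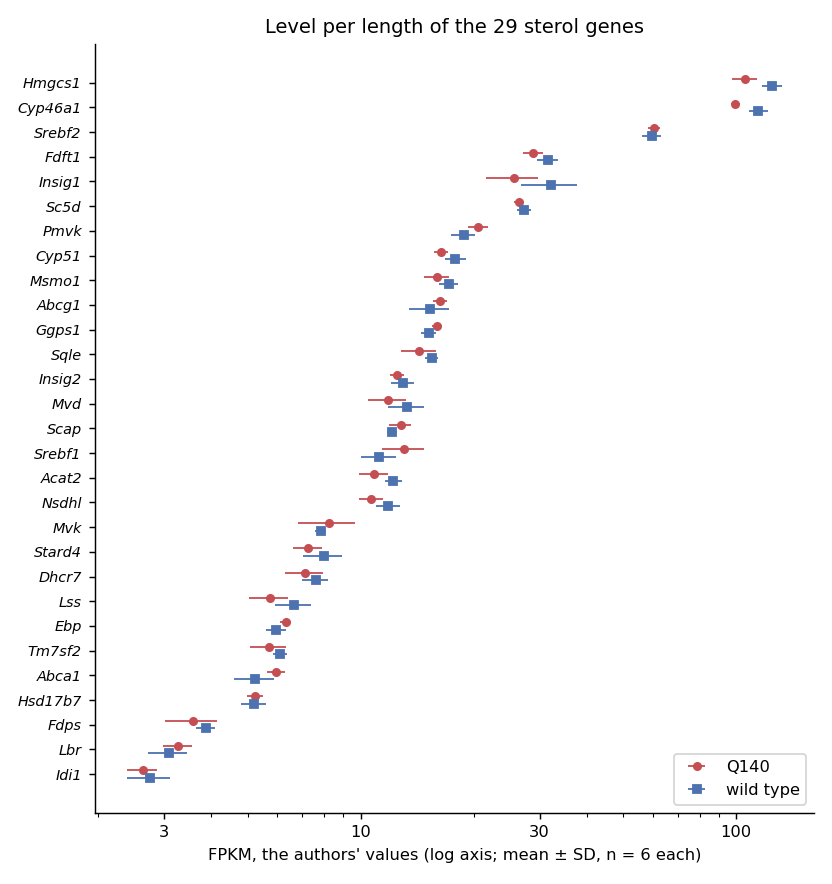
Mean FPKM and SD of the 29 genes in Q140 (circles) and WT (squares), 6 animals each, ordered by the mean over all 12 animals on a log axis. Hmgcs1, at 115 FPKM, and Cyp46a1, at 107 FPKM, lie farthest right and Idi1, at 2.69 FPKM, farthest left.

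Both sexes were compared in 1 model with 4 groups, split by genotype and by sex, of 3 animals each. In females 8 members fell and 0 rose, against 4.21% lower and 2.83% higher of all genes (7.05% in either direction). In males 1 fell and 0 rose, against 0.959% lower and 0.44% higher (1.4% in either direction). At an unadjusted p under 0.05 there were 14 lower and 2 higher in females, and 7 lower and 3 higher in males. The share of all genes at that threshold is not given for these fits. The 8 in females were Acat2, Hmgcs1, Fdps, Fdft1, Sqle, Lss, Nsdhl and Cyp46a1, and the 1 in males was Hmgcs1. Hmgcs1 averaged 319 CPM in Q140 females and 397 CPM in WT females (-0.31, adjusted p = 0.00694), and 354 CPM in Q140 males and 424 CPM in WT males (-0.26, adjusted p = 0.0371). The median of the 29 genes was -0.16 in females and -0.10 in males, and 23 of 29 had a negative sign in each. For all genes tested the median was 0.0044 in females and -0.00011 in males.

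The effect of Q140 was not shown to differ between the sexes for any member: 0 of 29 passed, as did 0% of all genes, and 0 members passed with DESeq2. At an unadjusted p under 0.05 there were 5 members with edgeR and 3 with DESeq2. Mvk had the widest gap of the 29, with 19.1 CPM in Q140 females and 21.7 CPM in WT females (-0.18), against 24.1 CPM in Q140 males and 20.9 CPM in WT males (0.21, adjusted p of the difference 0.471). In females the count was 4 without Q140 animal 1, 3 without Q140 animal 2, 5 without Q140 animal 4, 2 without WT animal 3 and 0 without WT animals 3 and 6. In males it was 0 without Q140 animal 2, 3 or 6 or WT animal 1, 4 or 5, and 2 without WT animal 6.

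Males were also set against females with genotype as a covariate. Lss was higher in males, with 66.0 CPM in Q140 males and 55.5 CPM in Q140 females, and 78.0 CPM in WT males and 67.6 CPM in WT females (log2 male over female 0.23, adjusted p = 0.0312). It was the 1 member of 29 to pass, against 0.197% of all genes higher and 0.457% lower in males (0.654% in either direction), with 7 members higher at an unadjusted p under 0.05. The call was lost without any 1 of the 6 Q140 animals or WT animal 5 or 6, and without both WT animals 3 and 6. Of the 29 genes, 22 had a higher fitted level in males, against 8708 of all 17725 genes. All 3 Q140 males share a name prefix that no Q140 female has, so sex and prefix cannot be told apart within Q140.

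**Figure D4:**
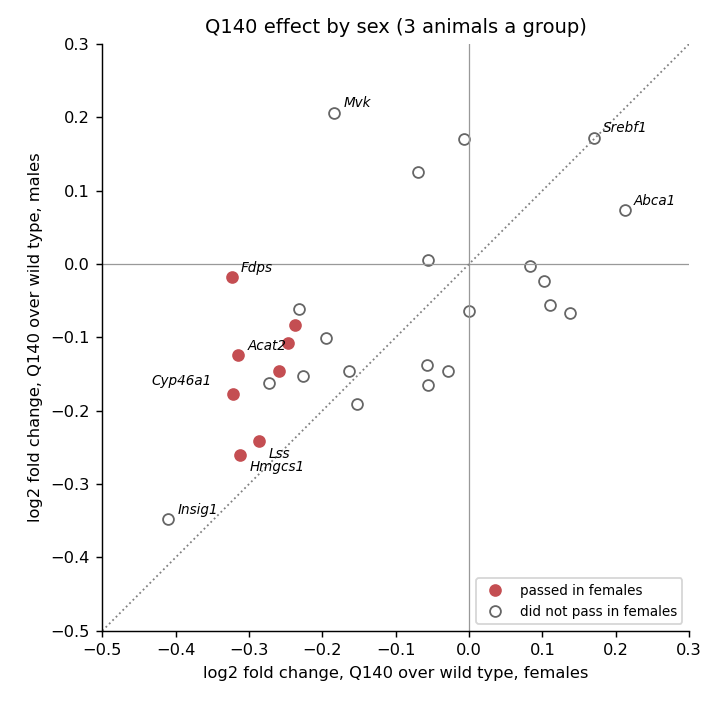
Log2 fold change of each member, Q140 over WT, in females (horizontal) and males (vertical), 3 animals a group; the dotted line marks equal effects. Filled points passed in females; the 8 lie between -0.32 and -0.24 in females, and Mvk stands apart at -0.18 in females and 0.21 in males.

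Genes of neighbouring routes were read from lists of textbook genes. In a list of 20 genes of fatty acid synthesis and the wider Srebf programme, 1 fell (5%, against 6.69% of all genes), 0 rose and 19 did not pass. At an unadjusted p under 0.05, 4 were lower and 2 higher, and the median log2 fold change was -0.03. The list also holds Mbtps1 and Mbtps2, proteases that cleave the Srebf proteins, so it is not made of Srebf targets alone. The 1 that fell was Tmem97, a sterol-responsive membrane protein, at 12.8 ± 1.01 CPM in Q140 and 15.4 ± 1.00 CPM in WT (SD, n = 6 each; -0.27, SE 0.0646, adjusted p = 0.0164), without overlap between the groups. DESeq2 gave 4 lower and 0 higher in that list; 0 were lower without WT animals 3 and 6, 2 without Q140 animal 3 or 6 or WT animal 2, and 1 was higher without Q140 animal 5 or 6. Of 15 genes of the branches that use farnesyl and related diphosphates, 0 fell, 2 rose and 13 did not pass, with a median of 0.06 and 0 lower at an unadjusted p under 0.05 or with DESeq2. The 2 were Zmpste24, the protease that trims prenylated lamin A, at 37.6 ± 1.72 CPM in Q140 and 31.5 ± 1.45 CPM in WT (0.26, SE 0.0448, adjusted p = 0.00281), and Fnta, the shared subunit of the prenyl transferases (0.19, SE 0.0520, adjusted p = 0.0327). A single gene of that list rose without any 1 of Q140 animals 1, 2, 3, 4 and 6 or WT animals 1, 3 and 5, and without both WT animals 3 and 6.

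Sterol uptake, transport, esterification and oxysterol receptor genes had 0 of 36 lower and 6 higher, with 30 that did not pass and a median of 0.05 (4 lower and 10 higher at an unadjusted p under 0.05, and 1 lower and 7 higher with DESeq2). Cyp27a1, a sterol hydroxylase of mitochondria, was at 8.99 ± 0.834 CPM in Q140 and 5.75 ± 1.83 CPM in WT (0.67, SE 0.159, adjusted p = 0.0171). Apod, an apolipoprotein of glia and of meningeal cells, was at 279 ± 48.7 CPM in Q140 and 164 ± 74.2 CPM in WT (0.82, SE 0.202, adjusted p = 0.0189). Both were low in WT animals 3 and 6, with 82.2 and 101 CPM of Apod, against 135 CPM or more in the other WT animals. Without both of them 0 genes of that list rose and 1 fell, and 3 rose without Q140 animal 2 or 3; 1 fell without Q140 animal 5 or 6, and 2 without WT animal 5.

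Markers of the cells in the cortex moved with genotype as well. Of 12 excitatory neuron markers 7 fell and 0 rose (median -0.33). Their summed level, most of it from Camk2a and Slc17a7, was 5924 to 6542 CPM in Q140, against 7318 to 9299 CPM in WT, without overlap. With each marker weighted alike, as the mean of their centred log2 CPM, it ran from -0.29 to -0.05 in Q140 and from -0.13 to 0.45 in WT, and WT animal 5, at -0.13, lay among the Q140 animals. Of 10 inhibitory neuron markers 4 fell and 0 rose (median -0.24; 612 to 772 CPM in Q140 and 703 to 898 CPM in WT). Of 16 oligodendrocyte and myelin markers 0 fell and 7 rose (median 0.28; 4445 to 6336 CPM in Q140 and 3897 to 5499 CPM in WT), and of 14 astrocyte markers 2 fell and 1 rose (median 0.10; 7449 to 9478 CPM in Q140 and 8065 to 10481 CPM in WT). Of those 14, 8 had a positive sign, and Slc1a2, which fell, gave more of the sum than any other, with 3558 CPM in Q140 and 4415 CPM in WT. In bulk tissue, fewer cells of a type and less RNA per cell cannot be told apart, and the part of these shifts in the falls of the sterol genes was not tested.

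The remaining marker lists gave 2 of 9 microglia and 1 of 8 endothelial and mural markers higher, against 4.5% of all genes. For meningeal and choroid plexus markers, 0 of 10 and 0 of 5 changed, with 0 at an unadjusted p under 0.05 and 0 with DESeq2. The summed meningeal level ran from 164 to 424 CPM in Q140 and from 32.6 to 406 CPM in WT, with the lowest value in WT animal 3. Striatal projection neuron markers, which report on neighbouring tissue, were 552 to 1000 CPM in Q140 and 412 to 1590 CPM in WT, with the lowest value in WT animal 6, and 2 of 9 fell. The excitatory markers of cortex, such as Slc17a7 at 1438 CPM in Q140 and 1823 CPM in WT, were abundant in every library. Factors for library composition did not overlap between the groups (exact permutation p = 0.00216, two-sided, the smallest that 6 against 6 animals allows).

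The level of the 20 enzymes in each animal was described by the mean of their log2 CPM, each centred on its mean over the 12 animals. It ran from -0.14 to 0.02 in Q140 and from -0.02 to 0.14 in WT. The Q140 females, animals 1, 2 and 4, were lowest, between -0.14 and -0.11, while the Q140 males, between -0.02 and 0.02, met WT animals 4 and 6, at 0.02 and -0.02. WT animals 1 and 5, both male, were highest, at 0.11 and 0.14.

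Name prefixes split the animals unevenly. RFckQ covers 1 Q140 and 4 WT animals, RFQ 3 Q140 males and 1 WT male, FMQ 1 WT animal, and 2 Q140 females have none. Within RFckQ 23 of 29 members were lower in the Q140 animal than in the WT mean, against 47.7% of all genes, with a median of -0.25 over the 29. Within RFQ 14 of 29 were lower in the Q140 mean than in the WT animal, against 51.6% of all genes, with a median of 0.0027. The 10 that fell were chosen on the same animals, so that their signs, negative for 10 of 10 within RFckQ and 8 of 10 within RFQ, are no support. Within RFQ Hmgcs1 stood at -0.25, Insig1 at -0.23, Lss at -0.16 and Cyp46a1 at -0.08. Each prefix leaves 1 group with a single animal, so these values have no test. With the prefix as a covariate, 2 of the 12 excitatory neuron markers fell and 1 of the 16 oligodendrocyte markers rose. In that fit Hmgcs1 was at -0.27 (adjusted p = 0.0506), Insig1 at -0.32 (adjusted p = 0.0588), Lss at -0.22 (adjusted p = 0.148) and Cyp46a1 at -0.21 (adjusted p = 0.148), and of all genes 101 fell and 33 rose.

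**Figure D5:**
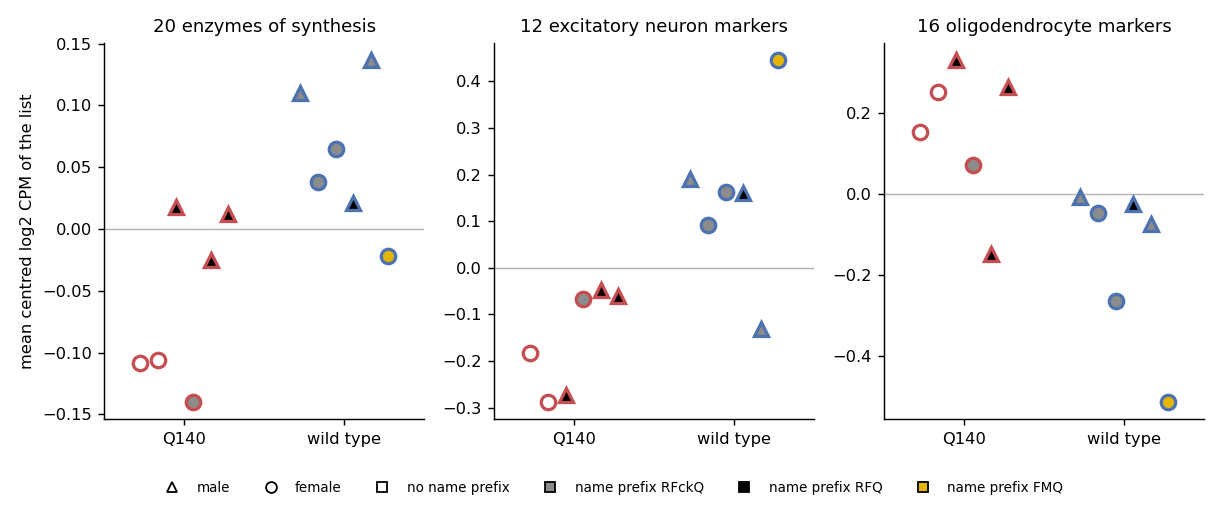
Mean centred log2 CPM of 20 cholesterol synthesis enzymes, 12 excitatory neuron markers and 16 oligodendrocyte and myelin markers in each animal (Q140 left, WT right; triangles, males; circles, females; fill, name prefix). The enzyme means of the Q140 females lie between -0.14 and -0.11, below every other animal, and those of the Q140 males overlap the lowest WT animals.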

How the data were processed

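The authors deposited whole-number counts per gene and FPKM, with 48795 genes and 12 animals in each; per the submitters' processing notes, STAR 2.7.5c, SAMtools 1.10 and HTSeq 0.12.3 were used with GRCm38 and mm10. Per the labels' protocols, libraries were stranded. No source used here gives the strand setting of the counting or its annotation release. FPKM values, made by the authors, carry no correction for library composition.

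Members and lists were chosen with earlier results of these data known. The test was the quasi-likelihood test of edgeR 4.0.16, run under R 4.3.3 (TMM, filterByExpr by genotype, sex as a covariate). P-values are two-sided and adjusted by Benjamini-Hochberg over 17725 genes, with a threshold of 0.05, and measure the spread between animals. CPM are TMM-scaled, and log2 CPM has a prior count of 2. Alternatives used DESeq2 1.42.0, limma 3.58.1 and sva 3.50.0, limma on log2(FPKM + 0.1) and log2(FPKM + 1) at a mean of at least 0.1 FPKM, other scalings and filters, and each animal left out; leaving out WT animals 3 and 6 together, and a block for the number in the animals' names, were added after the data were seen. The tests were checked on simulated counts. Positions and overlaps came from GENCODE M21, which matched 48435 identifiers. Values by animal are given for members that passed and for the sensing, turnover and export genes; of other lists, up to 3 members that passed are named by smallest p. One gene that this rule names is not reported here.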

Additional observations from a re-analysis of the deposited data

Results flagged for a closer look

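In 58 groups of 6 animals, 1 gene in 1 genotype each, 2 had an animal far from the other 5, by a gap that took most of the range (Dixon test); chance alone flags about 1 in 20 such groups. Msmo1 in WT animal 2 was at 96.7 CPM, against 108 to 114 CPM in the other WT animals. Insig1 in WT animal 6 was at 70.9 CPM, against 102 to 120 CPM in the other WT animals.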

How the results depend on the processing

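The 10 members that fell became 5 when scaled by library totals alone, 4 by limma on log2(FPKM + 0.1) or log2(FPKM + 1), 0 with the name prefix as a covariate or the name number as a block, and 4 without WT animals 3 and 6, and 5 to 13 with each animal left out; the other 9 settings gave 8 to 13. Members that rose numbered 0, or 0 to 1 with each animal left out. Of all genes, 1185 fell and 797 rose. Totals alone gave 822 and 1624, with the median of all genes at 0.05, FPKM 661 and 1366 (pseudocount 0.1) or 656 and 1363 (pseudocount 1), the prefix 101 and 33, and without WT animals 3 and 6 there were 562 and 300. Each animal left out gave 727 to 1430 and 412 to 1074. The 8 members in females became 0 without WT animals 3 and 6, and 2 to 8 with each animal left out. The 1 in males became 3 with DESeq2 and 0 to 2 with each animal left out. The 1 that differed between the sexes became 2 with DESeq2, 0 without WT animals 3 and 6 and 0 to 1 with each animal left out. Reversals of sign touched members that did not pass. Hsd17b7 went to 0.0144 by totals, 0.0150 and 0.0126 by FPKM and 0.0491 with the prefix and 0.0962 with the number as a block, and Srebf2 to 0.0213 by totals and 0.0221 and 0.0217 by FPKM. Without WT animals 3 and 6 Ggps1 went to -0.0099, Ebp to -0.0307, Lbr to -0.0350 and Abcg1 to -0.0328. Mvk went to -0.0085 with limma voom, -0.0059 with the prefix and -0.0602 with the number as a block. With each animal left out Mvk ran from -0.0511 to 0.0478, Lbr from -0.0031 to 0.0724 and Abcg1 from -0.0216 to 0.0779. The causes were not tested. The labels give replicates no number, but animal names hold 150 (Q140 animal 4, WT animal 3) and 161 (Q140 animals 3 and 5, WT animal 4) in both groups, and do not say what this means. Deviations from the group means correlated across genes at 0.035 for 150, and at 0.378 and 0.248 for 161. Pairs without a shared number were not set beside these, so the values cannot show whether the animals share more than it. The main fit has no term for the number. With it as a replicate block, a fit added after the data were seen in which genotype rests on those 5 animals, edgeR gave 0 members lower and 0 higher (5 and 0 at an unadjusted p under 0.05), a median of -0.13, and 0 lower and 1 higher of all genes. Within 150, 22 of 29 members were lower in Q140 (49.5% of all genes), and within 161, 15 of 29 (52% of all genes). Each member had at least 177 reads in every animal, so depth left no member undetected.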
